A study of Mus musculus with 23 samples.

Results

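The transforming growth factor beta (TGF-beta) and bone morphogenetic protein (BMP) signalling genes described here are 37 genes taken by name from a table of 49585 genes: 7 ligands, 5 proteins of the latent complex and matrix, 8 receptors and co-receptors, 5 SMAD signal transducers, 9 inhibitors and decoys, and 3 ID target genes. All 37 were in the table, and all 37 passed the filter of a mean of at least 10 counts per library, as did 14466 genes in all. Polyadenylated RNA was measured in whole liver of 23 C57Bl/6J mice at postnatal day 21, except for 1 MetS-Ct animal (number 97) labelled day 22. Control dams were fed 10% fat and MetS dams 45% fat, starting at 3 weeks old and lasting 7 or 17 weeks, and all were mated to control-fed males. Litters were set to 5 pups at birth and nursed by foster dams. The labels name each group by the mother's state before and after birth, where MetS is maternal metabolic syndrome and Ct the control state. Pups of Ct-Ct were never exposed (n = 6), pups of MetS-Ct were exposed before birth (n = 6), pups of Ct-MetS while nursed (n = 6), and pups of MetS-MetS at both times (n = 5). No group carried a transgene or a deleted gene. The question set by the design was whether exposure before birth, after birth or at both times changed liver expression at weaning. No label ties an animal to its litter or to a duration of maternal feeding, so p-values measure the spread between animals that may be littermates.

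TGF-beta, activins and BMPs are secreted ligands that act as dimers. A ligand brings together type I and type II receptor kinases, which phosphorylate SMAD2 and SMAD3 (TGF-beta and activins) or SMAD1 and SMAD5 (BMPs). These enter the nucleus with SMAD4 and act on target genes, among them the inhibitory SMADs that close a feedback loop. In the liver, TGF-beta is known for driving stellate cells to make matrix, activin A for restraining hepatocyte growth, and BMPs from endothelial cells for setting the level of the iron hormone hepcidin in hepatocytes.

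Library totals ranged from 16876460 to 34527932 counts, and levels are given as CPM, counts divided by library size in units of 1e+06 counts after edgeR's TMM scaling. Hepatocyte markers summed to between 108000 and 152700 CPM in each library, and no marker list had a gene at 0 throughout a group. All 23 livers were female by Xist (15615 to 43433 counts) and the Y-linked genes (at most 1 count). The library MetS-MetS_110 stood apart. It had the smallest total and the lowest mean correlation with the other libraries (0.968), and it held genes of squamous epithelium and skeletal muscle at levels that no other library reached, such as Krt13 at 338.8 CPM and Acta1 at 358 CPM against at most 0.0547 and 2.305 CPM elsewhere. The main MetS-MetS results are therefore also given without it. Without MetS-MetS_110, 36 of the 37 genes kept the sign of their log2 fold change against Ct-Ct, and the other one was Eng (-0.00 with it and 0.03 without). Of all 14466 genes, edgeR's quasi-likelihood test called 836 in MetS-MetS against Ct-Ct at an adjusted p (Benjamini-Hochberg) under 0.05. Without MetS-MetS_110 it called 326, and over all libraries left out in turn between 219 (without Ct-Ct_129) and 1354 (without Ct-Ct_33).

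Per kilobase of exon, the highest mean level was that of Tgfbi, a matrix protein induced by TGF-beta, at 24.9 ± 2.81 CPM per kilobase (SD, n = 23). It was followed by Id2, a target gene, at 22.7 ± 7.77, and by Eng, the endothelial co-receptor endoglin, at 18.9 ± 2.43. Id2 overlapped both of its neighbours within 1 SD, while Tgfbi and Eng did not overlap. The ligands of the TGF-beta family itself were low. Tgfb1 stood at 2.85 ± 0.433 CPM per kilobase, Tgfb3 at 0.604 ± 0.183 and Tgfb2 at 0.264 ± 0.0802, the last place in the order. Among the SMADs, the shared partner Smad4 led at 11.65 ± 0.737 CPM per kilobase, ahead of Smad5 at 6.79 ± 0.548, Smad3 at 3.897 ± 0.544, Smad1 at 2.92 ± 0.416 and Smad2 at 2.03 ± 0.180. The genes differed widely in how steady they were across the 23 livers. Their coefficient of variation was 6.33% for Smad4 and 8.08% for Smad5, but 61.9% for Inhbe and 64.3% for Fst.

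**Figure D1:**
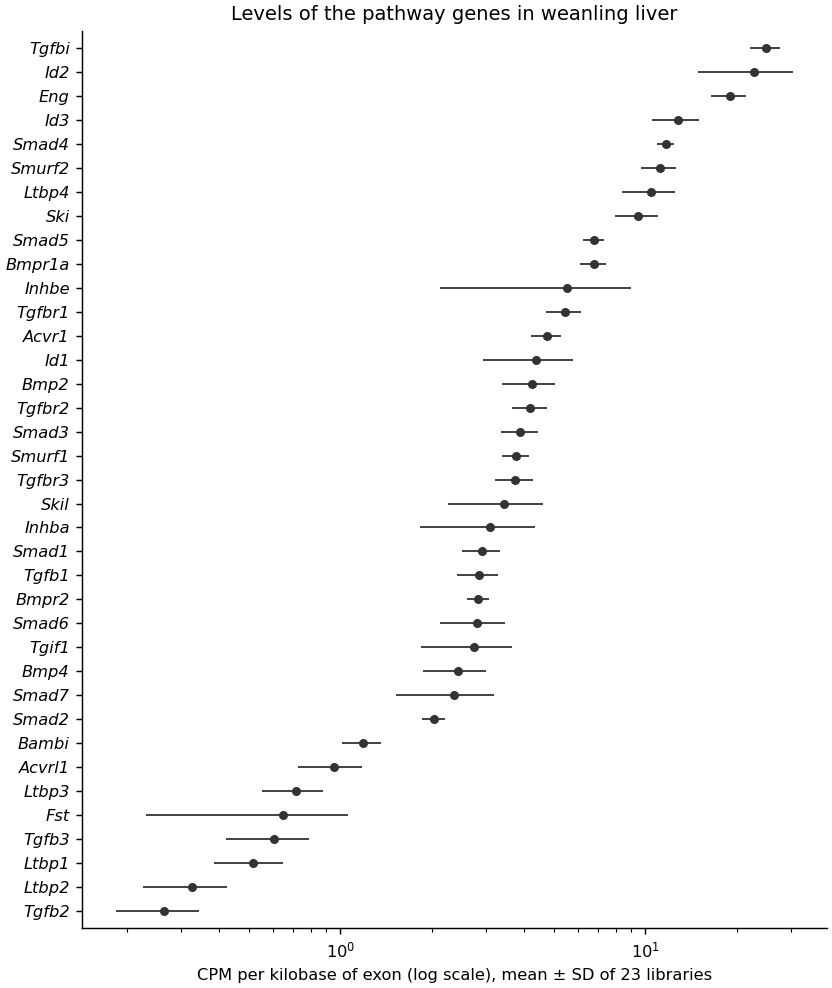
Mean level of each of the 37 genes over 23 libraries, in CPM per kilobase of exon on a log axis; bars are the SD. Tgfbi, Id2 and Eng lie at the top (24.9, 22.7 and 18.9) and Tgfb2 at the bottom (0.264), and the widest bars on this scale belong to Inhbe and Fst.

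Few of the 37 genes were called in any comparison, and no comparison had a larger share of edgeR calls than all genes tested. In MetS-Ct against Ct-Ct edgeR called 0 of the 37 genes, with a percentage of 0 among all genes tested. At an unadjusted p under 0.05 there were 2 of the 37 (5.41%, against 5.9% of all genes), and DESeq2 and limma-voom also called 0. In Ct-MetS against Ct-Ct edgeR again called 0 of 37, where 0.954% of all genes were called. Here 7 genes had an unadjusted p under 0.05 (18.9%, against 13.9%), DESeq2 called 2 (Tgfb1 and Tgfbi) and limma-voom 0. In MetS-MetS against Ct-Ct 1 of 37 was called, Inhba, which was lower (2.7%), where 5.78% of all genes were called, 3.06% higher and 2.72% lower. DESeq2 also called 1 (Inhba) and limma-voom 0. Another 5 of the 37 had an unadjusted p under 0.05, which makes 6 in all (16.2%, against 24.4%). The median log2 fold change of the 37 genes was -0.01, 0.02 and -0.09 in the 3 comparisons, and that of all genes tested was -0.0015, -0.013 and -0.0038. The 3 comparisons share the same Ct-Ct animals.

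The averaged effects of the timing of exposure gave few calls as well. For prenatal exposure, averaged over both postnatal states, edgeR called 0 of 37 genes, where 0.00691% of all genes were called; 2 of 37 had an unadjusted p under 0.05 (5.41%, against 16.3%), and DESeq2 and limma-voom called 0. For postnatal exposure, averaged over both prenatal states, edgeR called 0 of 37 where 4.22% of all genes were called, 2.27% higher and 1.95% lower. Of the 37, 8 had an unadjusted p under 0.05 (21.6%, against 21.2%), DESeq2 called 1 (Inhbe) and limma-voom 0. The interaction term asks whether the change with prenatal exposure differed between nursing by MetS dams and nursing by control dams. No gene at all was called for it (0 of 37, and 0 among all genes). At an unadjusted p under 0.05 there were 6 of 37 (16.2%, against 5.44% of all genes): Tgfb1, Bmp2, Tgfbi, Tgfbr1, Id1 and Id3, each at an adjusted p of 0.89. DESeq2 and limma-voom called 0 of 37 for the interaction. Counting animals in place of a test, 35 of 37 genes had overlapping values in MetS-MetS and Ct-Ct. Inhba (lower) and Inhbe (higher) did not overlap, where 4.41% of all genes did not (1.97% lower, 2.44% higher). In MetS-Ct and in Ct-MetS all 37 overlapped Ct-Ct, where 0.256% of all genes did not in MetS-Ct (0.0968% higher, 0.159% lower) and 1.42% did not in Ct-MetS (0.912% higher, 0.512% lower).

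**Figure D2:**
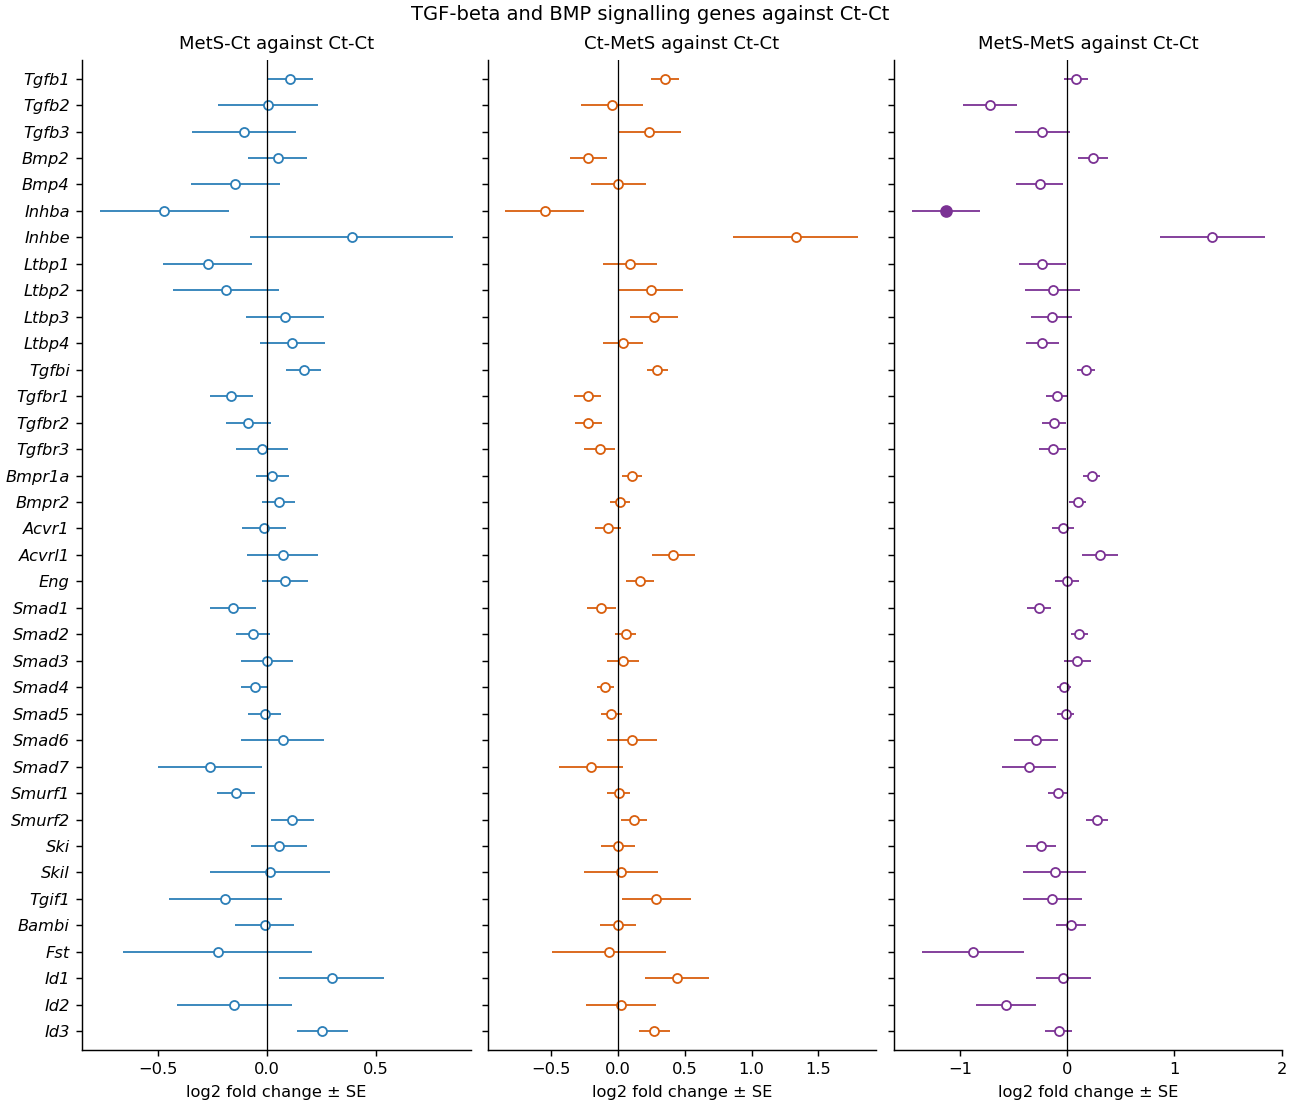
Log2 fold change of each of the 37 genes against Ct-Ct in MetS-Ct, Ct-MetS and MetS-MetS, with the SE as bars; a filled point marks an adjusted p under 0.05 (edgeR). The single filled point is Inhba in MetS-MetS at -1.13, Inhbe lies farthest to the right in both groups nursed by MetS dams (1.33 and 1.35), and the SMADs and most receptors lie close to 0.

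The activin subunit genes Inhba and Inhbe held the 2 largest log2 fold changes of the 37, in either direction, in each of the 3 comparisons with Ct-Ct. Inhba encodes the beta A subunit, which pairs with itself to form activin A. Its level in Ct-Ct ran from 24.8 to 30.9 CPM with a median of 26.8. In MetS-Ct it ran from 5.84 to 30.8 with a median of 21.5, and in Ct-MetS from 11.5 to 30.7 with a median of 14.96. The 5 MetS-MetS livers had 8.92, 11.8, 13.7, 13.8 and 13.8 CPM. Every MetS-MetS liver thus lay below every Ct-Ct liver, whereas the livers of MetS-Ct and Ct-MetS spread over both ranges. Inhba was 2.19-fold lower in MetS-MetS (log2 fold change -1.13 ± 0.32 SE, adjusted p = 0.041, edgeR). Averaged over the other exposure, its log2 difference was -0.53 ± 0.22 with prenatal exposure (adjusted p = 0.245) and -0.60 ± 0.22 with postnatal exposure (adjusted p = 0.11), and the interaction was -0.11 ± 0.43 (adjusted p = 0.975).

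The call for Inhba was close to the threshold. DESeq2 gave an adjusted p of 0.00659, a fit on the 2 groups alone 0.0038, limma-voom 0.0596 and a fit with no filter on low counts 0.078. Leaving out any 1 of the 5 MetS-MetS libraries, or any 1 of Ct-Ct_4, Ct-Ct_129, Ct-Ct_130 and Ct-Ct_139, moved the adjusted p to between 0.0532 and 0.0884, with log2 fold changes between -1.17 and -1.03. Without MetS-MetS_110 it was -1.12 (adjusted p = 0.088). For postnatal exposure Inhba was called without MetS-Ct_97 (-0.70, adjusted p = 0.034). In this bulk RNA, fewer cells of a type and less RNA per cell cannot be told apart.

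Inhbe encodes the beta E subunit, which is made chiefly by hepatocytes and forms activin E. Its level in Ct-Ct ran from 7.31 to 25.2 CPM with a median of 16.2, and in MetS-Ct from 7.95 to 44.9 with a median of 19.1. In Ct-MetS it ran from 7.80 to 61.8 with a median of 46.45. The 5 MetS-MetS livers had 30.9, 31.1, 38.3, 49.1 and 58.5 CPM. All of them lay above all of Ct-Ct, while 3 of the 6 Ct-MetS livers (36.1 CPM or less) lay among the values of groups nursed by control dams and the other 3 lay above (56.8 CPM or more). With all 4 groups in the edgeR fit, Inhbe was not called: its log2 fold change was 1.35 ± 0.49 in MetS-MetS (adjusted p = 0.096), 1.33 ± 0.47 in Ct-MetS (adjusted p = 0.18) and 1.15 ± 0.34 for postnatal exposure (adjusted p = 0.056). DESeq2 gave 0.0177 for postnatal exposure, a stricter filter of 50 counts gave 0.04997, and a fit on MetS-MetS and Ct-Ct alone called it there (1.34, adjusted p = 0.0486). Without MetS-MetS_110 the MetS-MetS value was 1.44 (adjusted p = 0.13). The postnatal value was then 1.19 (adjusted p = 0.071). Within Ct-MetS the SD was 22.4 CPM around a mean of 41.0. The postnatal difference was called when Ct-MetS_50 (7.80 CPM) was left out (1.26, adjusted p = 0.0168), and likewise without MetS-Ct_53 (1.33, adjusted p = 0.028) or Ct-Ct_33 (1.23, adjusted p = 0.0457).

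Inhbc, the gene of the beta C subunit and also a hepatocyte product, is the next protein-coding gene after Inhbe in RefSeq (GRCm38.p6), between Inhbe and R3hdm2. It was not among the 37 and was read from the list of other pathway genes. Its level ran from 38.3 to 61.7 CPM in Ct-Ct (median 51.9), from 45.8 to 73.0 in MetS-Ct (median 60.5) and from 59.1 to 87.0 in Ct-MetS (median 69.1). The MetS-MetS livers had 55.2, 75.05, 79.1, 80.5 and 83.8 CPM, of which 4 of 5 lay above all of Ct-Ct. Inhbc rose 1.47-fold in MetS-MetS (log2 fold change 0.56 ± 0.13, adjusted p = 0.020) and 1.29-fold with postnatal exposure (0.37 ± 0.09, adjusted p = 0.024). In MetS-MetS the call was kept without MetS-MetS_110 (0.54, adjusted p = 0.048); for postnatal exposure it was lost without MetS-MetS_154 (0.35, adjusted p = 0.052). Inhbb, the beta B subunit, had a log2 difference of 0.47 ± 0.24 with postnatal exposure (adjusted p = 0.26). Gm47200 is annotated on the opposite strand over both Inhbe and Inhbc, and B230303A05Rik and Gm48444 over Inhba. Of the 37 genes, 14 had such an overlap. The sources used here do not say whether the counting was stranded. The part of these overlaps in the levels was not tested.

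**Figure D3:**
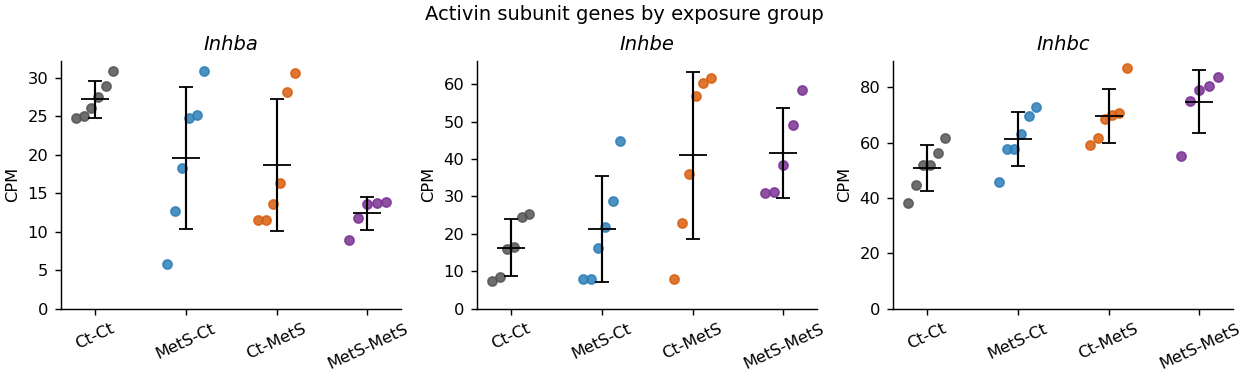
CPM of Inhba, Inhbe and Inhbc in each liver by group, with the mean as a line and the SD as bars. For Inhba the 5 MetS-MetS livers (8.92 to 13.8) lie below the 6 Ct-Ct livers (24.8 to 30.9), and for Inhbe they lie above them (30.9 or more against 25.2 or less).

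Because Inhbe and Inhbc lie next to each other and both had higher means in MetS-MetS, the 250 bases before each annotated start are shown, from RefSeq on GRCm38.p6, both on the minus strand. Inhbe lies at chr10:127351849-127352098 and Inhbc at chr10:127370549-127370798. Capitals mark CAGAC, the SMAD box, on either strand (GTCTG on the strand shown).
Inhbe: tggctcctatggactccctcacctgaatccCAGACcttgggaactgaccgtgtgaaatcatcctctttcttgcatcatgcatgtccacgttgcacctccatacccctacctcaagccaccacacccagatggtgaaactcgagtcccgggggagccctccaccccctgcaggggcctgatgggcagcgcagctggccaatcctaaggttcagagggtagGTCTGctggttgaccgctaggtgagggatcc
Inhbc: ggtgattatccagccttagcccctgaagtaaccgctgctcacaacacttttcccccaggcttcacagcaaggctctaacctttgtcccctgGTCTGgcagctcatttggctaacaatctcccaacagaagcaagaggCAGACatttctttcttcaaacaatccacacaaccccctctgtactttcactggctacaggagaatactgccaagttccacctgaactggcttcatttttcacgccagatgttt
Each window held 2 matches, 220 and 31 bases before the start of Inhbe and 159 and 113 bases before that of Inhbc. Neither held GGCGCC, an element of BMP target genes. A CAGAC match is common: 42.2% of 32851 mouse promoter windows of this length held 1 or more, as did 17 of the 36 windows found for 26 of the 37 genes (47.2%). GGCGCC was in 9.59% of all windows and in 10 of the 36 (27.8%). The windows were not matched for base composition, and a difference between these shares was not tested. A match is a stretch of letters and shows no binding.

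None of the 3 TGF-beta ligand genes was called by edgeR with all libraries. Tgfb1, the main fibrogenic form, ran from 10.4 to 15.4 CPM in Ct-Ct (median 13.2) and from 12.1 to 16.6 in MetS-Ct (median 13.7). In Ct-MetS it ran from 13.6 to 19.3 with a median of 16.8, and in MetS-MetS it was 11.75, 12.2, 14.4, 14.8 and 15.6 CPM. The groups overlapped, with 4 of 6 Ct-MetS livers above the highest Ct-Ct value. The log2 fold change was 0.35 ± 0.11 in Ct-MetS (adjusted p = 0.11 in edgeR, 0.0496 in DESeq2) but 0.08 ± 0.11 in MetS-MetS (adjusted p = 0.71), and the interaction was -0.38 ± 0.15 (adjusted p = 0.89).

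Tgfb2, the rarest of the 3 forms in these livers, ran from 1.07 to 2.15 CPM in Ct-Ct (median 1.62), from 1.198 to 2.03 in MetS-Ct (median 1.77) and from 1.14 to 2.25 in Ct-MetS (median 1.53). In MetS-MetS it was 0.627, 0.831, 0.929, 0.996 and 1.79 CPM. Of these, 4 of 5 lay below all of Ct-Ct, and the fifth was MetS-MetS_110. Its log2 fold change was -0.72 ± 0.26 (adjusted p = 0.087). Without MetS-MetS_110 it was -0.996 (adjusted p = 0.039), and Tgfb2 was then the 1 called gene of the 37 in place of Inhba. Tgfb3 had a log2 fold change between -0.23 and 0.23 in the 3 comparisons with Ct-Ct (adjusted p of 0.62 or more).

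The genes of the latent TGF-beta binding protein family, some members of which hold the inactive ligand in the matrix, passed no test. Ltbp1 had its smallest p for prenatal exposure, with values of 4.65 to 7.27 CPM in Ct-Ct (median 5.63), 2.96 to 7.29 in MetS-Ct (median 4.40) and 3.52 to 7.86 in Ct-MetS (median 6.67). The MetS-MetS livers had 3.89, 4.53, 4.66, 5.19 and 6.74 CPM, within the range of the other groups, and the log2 difference was -0.30 ± 0.15 (adjusted p = 0.32). The adjusted p of Ltbp2, Ltbp3 and Ltbp4 was 0.38 or more in each of the 3 comparisons with Ct-Ct.

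Tgfbi, the matrix protein named for its induction by TGF-beta, ran from 77.1 to 92.1 CPM in Ct-Ct (median 83.8), from 75.6 to 105.2 in MetS-Ct (median 97.7) and from 86.7 to 111 in Ct-MetS (median 106.7). In MetS-MetS the values were 86.2, 87.9, 97.3, 98.9 and 103.1 CPM. In Ct-MetS 5 of 6 livers lay above all of Ct-Ct, and the remaining liver (Ct-MetS_50) lay inside its range. The log2 fold change was 0.17 ± 0.08 in MetS-Ct (adjusted p = 0.82), 0.30 ± 0.08 in Ct-MetS (adjusted p = 0.077 in edgeR, 0.0217 in DESeq2) and 0.17 ± 0.08 in MetS-MetS (adjusted p = 0.21). Without Ct-MetS_50 edgeR called it in Ct-MetS (0.34, adjusted p = 0.037), and so it did without MetS-Ct_53 (0.30, adjusted p = 0.048).

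Macrophages are a known source of both Tgfb1 and Tgfbi, and markers of Kupffer cells, the resident liver macrophages, differed between groups. Of 11 Kupffer cell markers 0 were called in MetS-Ct, where 0% of all genes were called. In Ct-MetS 6 were called higher (54.5%, against 0.954% of all genes), and in MetS-MetS 7 (63.6%, against 5.78%). Their summed level ran from 449.6 to 578 CPM in Ct-Ct (median 519), from 596 to 669 in MetS-Ct (median 623), from 654 to 925 in Ct-MetS (median 708) and from 566 to 950.2 in MetS-MetS (median 723). Cd68 had a log2 fold change of 0.70 ± 0.12 in Ct-MetS and 0.65 ± 0.13 in MetS-MetS, and Clec4f one of 0.48 ± 0.11 and 0.44 ± 0.12. Tgfb1 and Tgfbi passed the edgeR test in none of these groups. Their log2 fold changes were 0.11 and 0.17 in MetS-Ct, 0.35 and 0.30 in Ct-MetS, and 0.08 and 0.17 in MetS-MetS. DESeq2 called both in Ct-MetS. The part of Kupffer cells in the values of Tgfb1 and Tgfbi was not tested. Of 13 stellate cell markers 0 were called in Ct-MetS and 1 in MetS-MetS (Pdgfrb, lower, log2 fold change -0.53 ± 0.14, adjusted p = 0.030). In MetS-MetS 6 of the 13 had a positive log2 fold change and 7 a negative one, and the largest in size was positive. Their summed level ran from 770.2 to 949.7 CPM in Ct-Ct and from 773 to 924 in MetS-MetS. The latter sums include MetS-MetS_110, which held skeletal muscle genes, and its part in them was not tested.

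**Figure D4:**
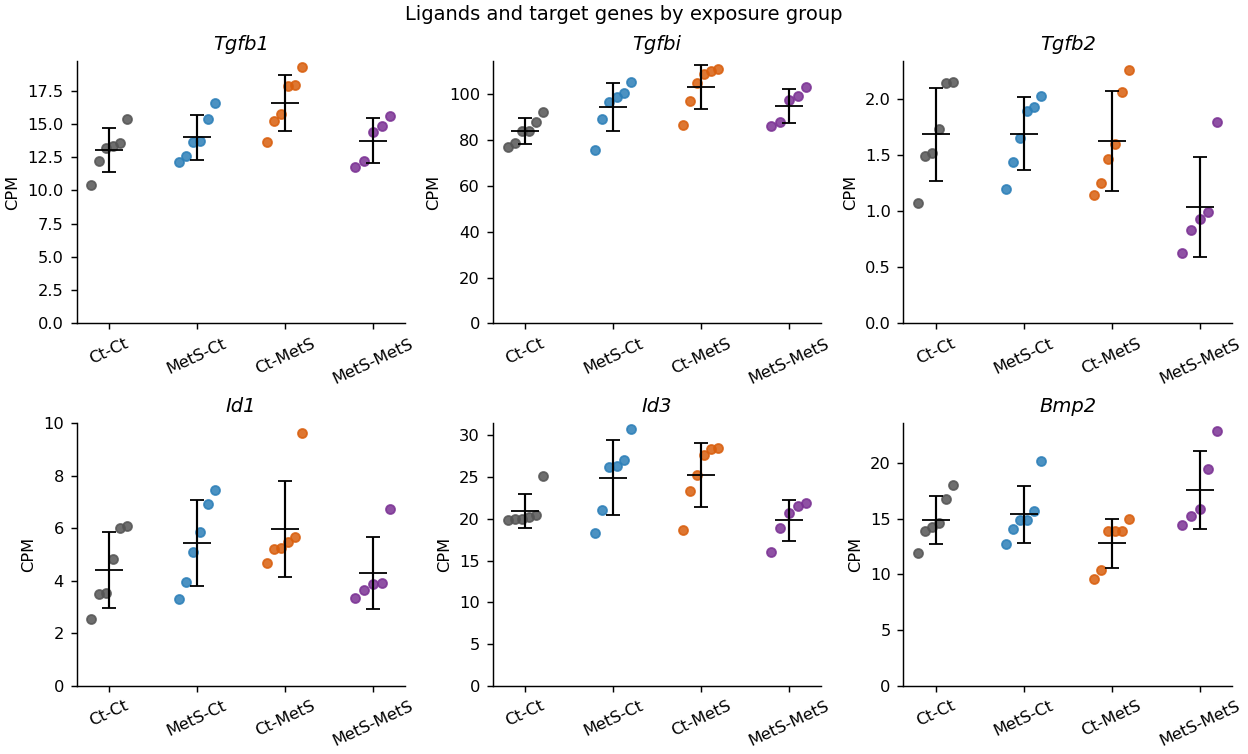
CPM in each liver by group for the ligands Tgfb1, Tgfb2 and Bmp2, the matrix gene Tgfbi and the ID target genes Id1 and Id3, with the mean as a line and the SD as bars. Values of the 4 groups overlap in every panel; Tgfb2 is low in 4 of the 5 MetS-MetS livers, and Id3 sits near 20 CPM in 5 of 6 Ct-Ct livers.

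The 2 BMP ligands among the 37 did not pass the test. Bmp2, made by liver endothelial cells and needed for hepcidin expression, ran from 11.95 to 18.0 CPM in Ct-Ct (median 14.4), from 12.8 to 20.2 in MetS-Ct (median 14.9) and from 9.54 to 14.98 in Ct-MetS (median 13.9). Bmp2 in MetS-MetS was 14.5, 15.2, 15.9, 19.4 and 22.9 CPM. The Ct-MetS and MetS-MetS values touched near 15 CPM, with 4 of 5 MetS-MetS livers above all Ct-MetS livers. Prenatal exposure had a log2 difference of 0.26 ± 0.10 (adjusted p = 0.23), and the interaction was 0.41 ± 0.20 (adjusted p = 0.89). Bmp4 differed from Ct-Ct by -0.26 to 0.00 on the log2 scale in the 3 comparisons, with an adjusted p of 0.50 or more.

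None of the 8 receptors and co-receptors was called. Bmpr1a, the BMP type I receptor that acts in hepatocytes, ran from 37.5 to 44.9 CPM in Ct-Ct (median 39.8), from 38.2 to 45.3 in MetS-Ct (median 40.7) and from 36.1 to 48.4 in Ct-MetS (median 45.8). Its MetS-MetS values were 43.9, 45.4, 45.4, 49.6 and 52.9 CPM, and 4 of these 5 lay above all of Ct-Ct. The log2 fold change in MetS-MetS was small, 0.23 ± 0.08 (adjusted p = 0.082), and for postnatal exposure it was 0.15 ± 0.05 (adjusted p = 0.11). Without MetS-MetS_110 the first was 0.21 (adjusted p = 0.17). Leaving out Ct-Ct_33 brought it to an adjusted p of 0.0474, and leaving out Ct-MetS_50 the second to 0.0396. Its type II partner Bmpr2 had log2 fold changes of 0.01 to 0.10 with an adjusted p of 0.47 or more, and the activin and BMP type I receptor Acvr1 had -0.08 to -0.01 with an adjusted p of 0.82 or more.

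The TGF-beta receptors were slightly lower in Ct-MetS than in Ct-Ct, without passing the test. Tgfbr1, the type I kinase, ran from 33.2 to 49.1 CPM in Ct-Ct (median 38.1), from 28.4 to 40.4 in MetS-Ct (median 34.45) and from 29.6 to 40.8 in Ct-MetS (median 31.03). In MetS-MetS the values were 33.2, 34.8, 35.7, 38.0 and 39.7 CPM, and 49.1 came from a single Ct-Ct liver whose nearest neighbour had 38.99. Its log2 fold change in Ct-MetS was -0.23 ± 0.10 (adjusted p = 0.30). Tgfbr2, the type II kinase that binds the ligand, ran from 28.6 to 42.2 CPM in Ct-Ct (median 38.6), from 31.7 to 39.1 in MetS-Ct (median 34.45) and from 27.3 to 38.8 in Ct-MetS (median 30.6). The MetS-MetS livers had 25.9, 30.9, 35.85, 38.1 and 38.9 CPM, so that the groups overlapped, and the log2 fold change in Ct-MetS was -0.22 ± 0.10 (adjusted p = 0.34). The betaglycan gene Tgfbr3 differed by -0.14 to -0.02 (adjusted p of 0.55 or more). Of the endothelial pair that binds BMP9 and BMP10, Acvrl1 had a log2 fold change of 0.41 ± 0.16 in Ct-MetS (adjusted p = 0.23) and Eng one of 0.16 ± 0.11 (adjusted p = 0.53). Across the 23 livers with group means removed, Eng and Acvrl1 had a Pearson r of 0.067 (permutation p = 0.758, adjusted p = 0.758 over 6 relations) and a Spearman rho of -0.027 (permutation p = 0.909, adjusted p = 0.909), and r was 0.181 without the 2 livers farthest from the median of Eng.

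None of the 5 SMADs that carry the signal was called by edgeR, DESeq2 or limma-voom. They had log2 fold changes between -0.26 and 0.11 in the 3 comparisons with Ct-Ct. The 2 SMADs of the TGF-beta and activin branch, Smad2 and Smad3, had values of 0.11 ± 0.08 and 0.09 ± 0.13 in MetS-MetS (adjusted p = 0.42 and 0.71), and Smad2 had 0.12 ± 0.06 for postnatal exposure (adjusted p = 0.23). In the BMP branch Smad1 had -0.26 ± 0.11 (adjusted p = 0.15) and Smad5 -0.02 ± 0.08 (adjusted p = 0.93). Smad4, shared by both branches, had -0.03 ± 0.07 in MetS-MetS (adjusted p = 0.79), with group means of 44.6 ± 3.40 CPM in Ct-Ct (SD, n = 6) and 43.6 ± 1.57 CPM in MetS-MetS (SD, n = 5).

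None of the 9 inhibitors and decoys was called in any of the 6 comparisons by edgeR, DESeq2 or limma-voom, and the only one of them with an unadjusted p under 0.05 was Smurf2 in MetS-MetS. Smad7, the feedback inhibitor of both branches, ran from 6.90 to 25.4 CPM in Ct-Ct (median 9.66), from 7.46 to 13.1 in MetS-Ct (median 10.3) and from 7.47 to 14.2 in Ct-MetS (median 10.98). Values of 6.63, 8.95, 10.1, 10.2 and 11.8 CPM were found in MetS-MetS. Apart from Ct-Ct_130, the source of the 25.4, the groups overlapped widely, and the log2 fold change in MetS-MetS was -0.36 ± 0.26 (adjusted p = 0.41). Without Ct-Ct_130 it was -0.0031 (adjusted p = 0.99). Smad6, the inhibitor of the BMP branch, had -0.29 ± 0.20 in MetS-MetS (adjusted p = 0.39). The ubiquitin ligases that remove receptors and SMADs differed little, with 0.27 ± 0.10 for Smurf2 (adjusted p = 0.10, edgeR) and -0.08 ± 0.09 for Smurf1 (adjusted p = 0.63) in MetS-MetS. The nuclear repressors Ski, Skil and Tgif1 had log2 fold changes of -0.25, -0.12 and -0.14 there, with adjusted p of 0.27, 0.84 and 0.80. Ski was called lower there when Ct-Ct_33, its lowest Ct-Ct liver (31.3 CPM), was left out. The decoy receptor Bambi had 0.03 ± 0.14 (adjusted p = 0.91).

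Fst encodes follistatin, a secreted protein that binds activins and blocks them. It ran from 1.75 to 8.45 CPM in Ct-Ct (median 2.65), from 1.08 to 5.14 in MetS-Ct (median 2.77) and from 1.36 to 7.67 in Ct-MetS (median 2.51). The MetS-MetS livers had 1.42, 1.43, 2.02, 2.19 and 2.48 CPM, all within the range of Ct-Ct except for the lowest pair. The log2 fold change in MetS-MetS was -0.88 ± 0.47 (adjusted p = 0.26), and without Ct-Ct_129, the source of the 8.45, it was -0.40 (adjusted p = 0.65). Inhbe and Fst had a Pearson r of -0.44 over the 23 livers with group means removed (permutation p = 0.0755, adjusted p = 0.121) and a Spearman rho of -0.227 (permutation p = 0.365, adjusted p = 0.547). The 2 livers farthest from the median of Inhbe over all 23 livers were Ct-Ct_129 and Ct-MetS_50, which also had the highest Fst. Without them r was -0.018, again with group means removed, so the value of -0.44 rests on those livers.

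The ID genes encode inhibitors of helix-loop-helix factors and are the classical immediate targets of BMP signalling. Id1 ran from 2.53 to 6.10 CPM in Ct-Ct (median 4.17), from 3.29 to 7.48 in MetS-Ct (median 5.48) and from 4.66 to 9.65 in Ct-MetS (median 5.36). Values in MetS-MetS were 3.36, 3.65, 3.88, 3.897 and 6.72 CPM. Id3 ran from 19.9 to 25.1 CPM in Ct-Ct (median 20.1), from 18.4 to 30.7 in MetS-Ct (median 26.25) and from 18.6 to 28.4 in Ct-MetS (median 26.5). In MetS-MetS it was 16.02, 18.9, 20.7, 21.55 and 21.9 CPM.

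For both genes the medians of MetS-Ct and Ct-MetS were above those of Ct-Ct and MetS-MetS, with overlap between all groups. The log2 fold change of Id3 was 0.25 ± 0.12 in MetS-Ct (adjusted p = 0.82), 0.27 ± 0.12 in Ct-MetS (adjusted p = 0.29) and -0.08 ± 0.12 in MetS-MetS (adjusted p = 0.74). Its interaction of -0.61 ± 0.17 had the smallest unadjusted p of the 37 genes for that term (adjusted p = 0.89 in edgeR, 0.436 in DESeq2). Id1 gave an interaction of -0.77 ± 0.35 (adjusted p = 0.89, edgeR). Id2 had a log2 fold change of -0.57 ± 0.28 in MetS-MetS (adjusted p = 0.21).

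Hepcidin, the hormone that blocks iron export from cells, is the best known hepatic product of BMP signalling. Its gene is Hamp, and mice also carry a related gene, Hamp2, whose part in iron control was not tested. Neither is among the 37. Hamp ran from 0.115 to 12.4 CPM in Ct-Ct (median 0.966) and from 0.502 to 11.5 in MetS-Ct (median 4.45). In Ct-MetS it ran from 0 counts in Ct-MetS_63, a depth at which 3 counts would be 0.0914 CPM, to 4.04 CPM (median 0.782), and the MetS-MetS livers had 0.0619, 0.0722, 0.0949, 0.358 and 1.42 CPM. Hamp2 ran from 1.88 to 31.7 CPM in Ct-Ct (median 8.73), from 2.13 to 91.9 in MetS-Ct (median 26.8) and from 0.183 to 5.96 in Ct-MetS (median 2.66). In MetS-MetS it was 0.371, 0.614, 0.627, 0.664 and 3.94 CPM. Both genes varied over an order of magnitude or more within a group, and the groups nursed by MetS dams had the lower medians, with overlap.

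Hamp2 fell 12.3-fold with postnatal exposure (log2 difference -3.62 ± 0.67, adjusted p = 0.00645, edgeR) and 11.9-fold in MetS-MetS against Ct-Ct (-3.57 ± 1.02, adjusted p = 0.044). The postnatal call was kept when any single library was left out, while the MetS-MetS call was lost without any 1 of 9 libraries, among them MetS-MetS_110 (-3.37, adjusted p = 0.10), and in limma-voom (adjusted p = 0.211). Hamp had -2.54 ± 0.84 with postnatal exposure (adjusted p = 0.086 in edgeR, 0.0405 in DESeq2). Markers of erythroid cells, the users of the iron that hepcidin controls, also differed with postnatal exposure. There 5 of 10 were called higher (50%, against 4.22% of all genes), among them Slc4a1 (1.66 ± 0.21). Against Ct-Ct, 9 of the 10 had a negative log2 fold change in MetS-Ct and 5 had one in Ct-MetS. In MetS-MetS 9 of the 10 markers had a positive one. Their summed level ran from 245.3 to 693 CPM in Ct-Ct (median 380.0), from 156.5 to 266 in MetS-Ct (median 197), from 175 to 421 in Ct-MetS (median 319) and from 360.0 to 652 in MetS-MetS (median 462). Their part in the values of Hamp and Hamp2 was not tested. The transcripts of Hamp and Hamp2 were not compared, and how the counting treated reads that match both genes is not known. Gm44662 is annotated on the opposite strand over them, with 136 counts at most in any library. The sources used here do not say whether the counting was stranded, so both levels are uncertain.

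The 250 bases before the starts of Hamp and Hamp2 (RefSeq, GRCm38.p6, minus strand) are shown. They were chosen since edgeR called Hamp2 and not Hamp, but a difference between these genes was not tested. In MetS-MetS against Ct-Ct both log2 fold changes were negative (-3.57 for Hamp2 and -3.02 for Hamp). Hamp had fewer counts (mean 70.3 per library, against 381.9 for Hamp2). Hamp lies at chr7:30944030-30944279 and Hamp2 at chr7:30924182-30924431. Capitals mark the BMP element and the SMAD box as spelled above. The 2 motifs can share at most 1 base, and the matches here do not overlap.
Hamp: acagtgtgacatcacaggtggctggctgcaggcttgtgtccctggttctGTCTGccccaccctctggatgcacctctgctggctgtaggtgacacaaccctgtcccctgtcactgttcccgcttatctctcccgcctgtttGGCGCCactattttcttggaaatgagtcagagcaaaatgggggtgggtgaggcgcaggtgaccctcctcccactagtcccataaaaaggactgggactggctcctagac
Hamp2: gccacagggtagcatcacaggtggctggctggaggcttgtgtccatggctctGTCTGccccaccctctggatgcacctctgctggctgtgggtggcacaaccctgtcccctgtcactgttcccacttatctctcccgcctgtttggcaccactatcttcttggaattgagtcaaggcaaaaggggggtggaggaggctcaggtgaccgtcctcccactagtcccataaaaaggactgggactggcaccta
Aligned over 253 columns, the windows were identical in 227 (89.7%). The Hamp window held the BMP element GGCGCC once. At the aligned place Hamp2 had GGCACC, a difference of G4A (the Hamp base, the position counted from 1 at the 5′ end of the element, the Hamp2 base). Each window held 1 SMAD box, 201 bases before the start in Hamp and 198 in Hamp2. These are descriptions of letters in a window, and nothing was measured at the elements.

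Id1 and Hamp were read together in each liver as targets of the same BMP signal. On the log2(CPM + 1) scale with group means removed, livers with more Id1 tended to have more Hamp. Within single groups r was 0.742 in Ct-Ct, 0.859 in MetS-Ct and 0.806 in Ct-MetS, but 0.137 in MetS-MetS. Over 23 livers Pearson's r was 0.713 (permutation within groups, p = 0.00042, adjusted p = 0.00252 over 6 relations) and Spearman's rho was 0.75 (permutation p = 0.00027, adjusted p = 0.00162). Without the 2 livers farthest from the median of Id1 (Ct-Ct_139 and Ct-MetS_169), r was 0.614 (permutation p = 0.00903, adjusted p = 0.0542), so the call was lost without that pair. With any single liver left out the call was kept (permutation test, adjusted p of 0.0235 or less).

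The other relations tested for Id1 did not pass over all 23 livers. With 1 liver left out, Id1 and Id3 passed without Ct-MetS_63 (r = 0.537, permutation test, adjusted p = 0.0492) and Id1 and Smad7 without MetS-MetS_39 (r = 0.607, permutation test, adjusted p = 0.024). With Id3, r was 0.474 (permutation p = 0.0331, adjusted p = 0.0992) and rho 0.397 (permutation p = 0.0782, adjusted p = 0.235), with r of 0.445 without the same 2 livers. With the inhibitory SMADs, which the same signal induces, r was 0.413 for Smad7 (permutation p = 0.0809, adjusted p = 0.121; rho 0.281, permutation p = 0.227, adjusted p = 0.455) and 0.127 for Smad6 (permutation p = 0.595, adjusted p = 0.715; rho 0.077, permutation p = 0.749, adjusted p = 0.899). Without the same 2 livers these were 0.196 and 0.061. Within the 5 livers of MetS-MetS r was -0.828 for Smad7 and -0.892 for Smad6, while it ran from 0.398 to 0.774 in the other groups. Among these 5 livers Id1 stood apart in MetS-MetS_39 (6.72 CPM, next 3.9). No relation was tested within a single group, nor was a difference between groups.

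**Figure D5:**
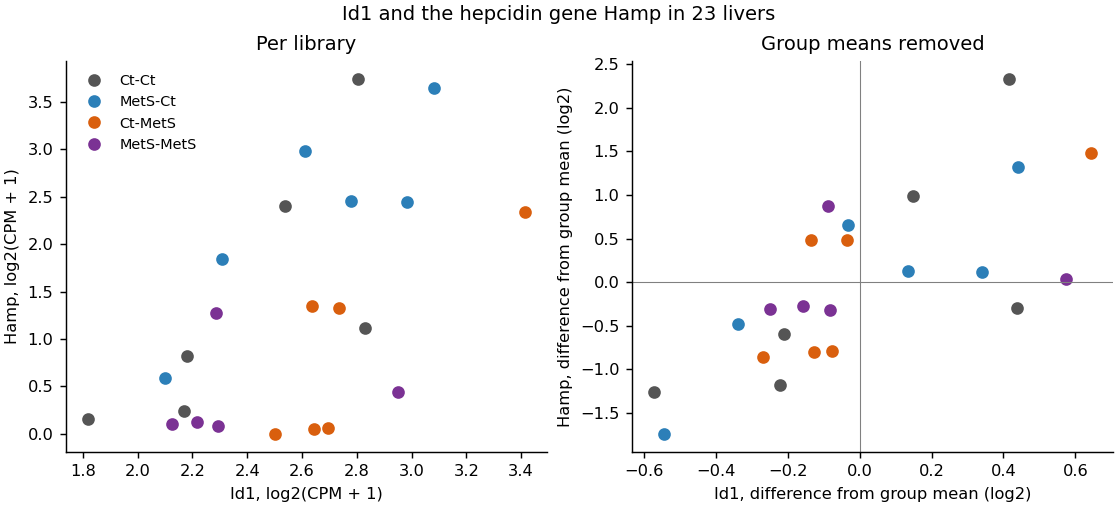
Id1 against Hamp in 23 livers on the log2(CPM + 1) scale, 1 point per liver coloured by group, as measured (left) and with group means removed (right). On the right, livers with more Id1 tend to have more Hamp (Pearson r = 0.713), and the MetS-MetS points lie low on the Hamp axis on the left.

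Beyond the 37 genes, 77 others of the pathway were listed by role, of which 66 passed the filter on low counts. By edgeR 0 of the 66 were called in MetS-Ct and 0 in Ct-MetS, where 0% and 0.954% of all genes were called. At an unadjusted p under 0.05 there were 2 (3.03%, against 5.9% of all genes) and 9 (13.6%, against 13.9%). In MetS-MetS 1 was higher (Inhbc) and 1 lower (Hamp2), which is 3.03% against 5.78% of all genes, and the same pair was called for postnatal exposure (3.03% against 4.22%). For prenatal exposure and the interaction 0 were called, where 0.00691% and 0% of all genes were. At an unadjusted p under 0.05 there were 4 for prenatal exposure (6.06%, against 16.3%) and 4 for the interaction (6.06%, against 5.44%). DESeq2 called 3 in Ct-MetS and 5 for postnatal exposure, where it called 425 and 1038 of all genes tested.

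Of the 12 other ligands tested, Inhbc was the only gene called by edgeR. The 6 other receptors and co-receptors gave no call in edgeR. Acvr2a and Acvr2b, the activin type II receptors, differed by -0.11 ± 0.06 and -0.10 ± 0.14 with postnatal exposure (adjusted p = 0.30 and 0.72). The hemojuvelin gene Hjv, a BMP co-receptor for hepcidin, differed by -0.26 ± 0.25 in MetS-MetS (adjusted p = 0.57), and Rgma by 0.39 ± 0.40 (adjusted p = 0.59), a value that was -0.36 without MetS-MetS_110.

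Among 16 other activators and inhibitors outside the cell, Nrros, which anchors latent TGF-beta on macrophages, had 0.28 ± 0.08 with postnatal exposure (adjusted p = 0.058 in edgeR, 0.0265 in DESeq2; 0.32 and 0.039 in edgeR without MetS-MetS_110, 0.30 and 0.044 without MetS-Ct_120). The Kupffer cell markers given above were higher in the same comparison, 6 of 11 of them called (54.5%, against 4.22% of all genes). Their part was not tested. The BMP modulator Twsg1 had 0.23 ± 0.08 in MetS-MetS (adjusted p = 0.089; 0.27 and 0.034 without Ct-Ct_33). Among 18 other regulators inside the cell, the endocytic adaptor Dab2 had 0.17 ± 0.07 with postnatal exposure (adjusted p = 0.18) and Zfyve16, a SMAD anchor on endosomes, 0.16 ± 0.07 (adjusted p = 0.22). In MetS-MetS Strap, which holds SMAD7 at the receptor, had 0.19 ± 0.08 (adjusted p = 0.13; 0.24 and 0.04996 without Ct-Ct_10). The ubiquitin ligase Nedd4l had -0.56 ± 0.23 there (adjusted p = 0.13; -0.86 and 0.021 without MetS-MetS_39). Of 14 other target genes, Hamp2 was the one called by edgeR. Atoh8, a BMP target linked to hepcidin control, had -0.65 ± 0.26 in MetS-MetS (adjusted p = 0.13).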

How the data were processed

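One polyadenylated RNA library per liver was sequenced after a directional library kit, per the labels. Per the submitters' processing notes, the authors used FastQC, STAR, HTSeq and DESeq2. The sources used here name no version, build, annotation or strand setting. The authors' deposited table holds whole-number counts per gene, read as raw although the table is named as normalised, since size factors computed on it ran from 0.623 to 1.42. Symbols were matched for 49326 of 49585 genes.

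edgeR 4.0.16 (R 4.3.3) fitted 1 mean per group over 23 libraries (TMM factors, robust quasi-likelihood test) to 14466 genes with a mean count of at least 10. Calls needed an adjusted p under 0.05 (Benjamini-Hochberg over all genes tested). Relations used log2(CPM + 1), with 1 as pseudocount, and 1e+05 permutations. Alternatives were DESeq2 1.42.0, limma-voom (limma 3.58.1), DESeq2 size factors, no filter or a minimum of 50 counts, thinning to the smallest library, the groups compared alone, and leaving out each library. Exon lengths and overlaps came from GENCODE M21 and promoters from RefSeq, both GRCm38, used for names, lengths and sequence only.

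In simulated counts for MetS-MetS against Ct-Ct (14394 genes), 46.5% of 1.5-fold, 62.8% of 2-fold and 98% of 4-fold differences were found. Within-group libraries correlated at 0.964 to 0.992 and each counted as 1 replicate. Animal numbers pair no samples. The 37 genes and all lists were chosen with earlier results of these data known. Full values are given for genes called, the 3 smallest p in each comparison, and Tgfb1, Tgfbr2, Smad7, Id1, Bmp2, Inhbe and Fst. Among other pathway genes, those called and the 2 smallest p per list are named. A promoter search had been meant for genes of the 37 called in the same direction, of which there were none. The 4 promoters shown, and Acvrl1, Eng, Smurf2 and other genes named in passing, were chosen after their values were seen. Single genes left unnamed in a count are not reported here.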

Additional observations from a re-analysis of the deposited data

Results flagged for a closer look

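In groups of 5 or 6 livers, a single liver stood apart by Dixon's test at 95% in 13 of 160 combinations of gene and group (40 genes, the 37 with Inhbc, Hamp and Hamp2). Chance alone gives such a flag in about 1 of 20, which is 8 here, and the cause was not tested. In Ct-Ct the livers set apart were Ct-Ct_10 for Tgfbr1 (49.1 CPM, next 38.99), Ct-Ct_130 for Smad7 (25.4 CPM, next 12.7) and Skil (58.2 CPM, next 36.2), Ct-Ct_33 for Ski (31.3 CPM, next 55.7), Ct-Ct_129 for Fst (8.45 CPM, next 3.37), and Ct-Ct_4 for Id3 (25.1 CPM, next 20.5) and Hamp (12.4 CPM, next 4.27). In Ct-MetS they were Ct-MetS_169 for Acvrl1 (7.17 CPM, next 4.63) and Id1 (9.65 CPM, next 5.66), and Ct-MetS_145 for Eng (55.2 CPM, next 82.4). In MetS-MetS they were MetS-MetS_39 for Id1 (6.72 CPM, next 3.897) and MetS-MetS_157 for Hamp (1.42 CPM, next 0.358) and Hamp2 (3.94 CPM, next 0.664). Ct-MetS_169 is also in the pair of livers without which the adjusted call for Id1 and Hamp was lost.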

How the results depend on the processing

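Of the 37 genes, 1 was called in MetS-MetS against Ct-Ct, and this count was 0 with limma-voom, 0 with no filter and 2 (Inhba and Inhbe) in a fit on the groups compared alone. With DESeq2, 2 were called in Ct-MetS and 1 for postnatal exposure, and the stricter filter also gave 1 for postnatal exposure (Inhbe). Among other pathway genes DESeq2 called 3 in Ct-MetS (among them Inhbc and Nrros) and 5 for postnatal exposure (among them Inhbc, Nrros, Hamp and Hamp2), and limma-voom called 1 in MetS-MetS (Inhbc). Leaving out 1 library at a time, the counts of the 37 ran from 0 to 1 in Ct-MetS (Tgfbi without MetS-Ct_53 or Ct-MetS_50), from 0 to 3 in MetS-MetS (Bmpr1a, Inhba and Ski without Ct-Ct_33) and from 0 to 2 for postnatal exposure (Bmpr1a and Inhbe without Ct-MetS_50). For other pathway genes they ran from 1 to 3 in MetS-MetS and from 1 to 3 for postnatal exposure. For MetS-Ct, prenatal exposure and the interaction, counts of both lists were 0 under every alternative and with any library left out. Rgma in MetS-MetS (0.39) ran from -0.36 without MetS-MetS_110 to 0.61 without Ct-Ct_130. Among all genes tested, the calls in MetS-MetS (836) were 457 with no filter, 527 with limma-voom and 1346 with DESeq2. Those in Ct-MetS (138) were 47 in a fit on the groups compared alone and 425 with DESeq2, and those for postnatal exposure (611) 367 with no filter and 1038 with DESeq2. DESeq2 called 14 in MetS-Ct, 165 for prenatal exposure and 4 for the interaction, against 0, 1 and 0. Without single libraries the counts ran from 12 (Ct-MetS_169) to 246 (Ct-Ct_33) in Ct-MetS, from 219 (Ct-Ct_129) to 1354 (Ct-Ct_33) in MetS-MetS, from 349 (MetS-MetS_154) to 923 (Ct-MetS_50) for postnatal and from 0 to 22 (Ct-Ct_33) for prenatal exposure.

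With group means kept, r was 0.601 for Id1 and Id3 and -0.464 for Inhbe and Fst, both then past the threshold. Without the 2 farthest livers Id1 and Hamp gave 0.614. Leaving out single livers, r ran from 0.66 to 0.777 for Id1 and Hamp, from 0.358 to 0.537 for Id1 and Id3, from 0.295 to 0.607 for Id1 and Smad7, and from -0.55 to -0.215 for Inhbe and Fst. It ran from -0.029 to 0.428 for Id1 and Smad6, below 0 without Ct-Ct_130 (-0.013) or MetS-Ct_120 (-0.029), and from -0.036 to 0.161 for Eng and Acvrl1, below 0 without Ct-MetS_169 (-0.008) or MetS-MetS_157 (-0.036). The cause of these changes was not tested. No paired analysis was possible because the groups share no animal numbers. Depth limits Hamp, with counts at or near 0 in several livers, and group size limits small changes, with 46.5% of 1.5-fold changes recovered in simulation.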
